A study of Mus musculus with 10 samples.

Results

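Actb, B2m and Rpl19 are 3 of the 4 control mRNAs on a NanoString nCounter miRNA panel of 626 probes. They were chosen by name, as every mRNA probe of the panel other than Gapdh. Actb encodes cytoplasmic beta-actin, the building block of actin filaments. B2m encodes beta-2-microglobulin, the light chain that MHC class I molecules need to fold and reach the cell surface, and its transcription is known to respond to interferon and NF-kB signalling. Rpl19 encodes a protein of the large (60S) ribosomal subunit. All 3 serve as reference genes in many assays, where a constant level across samples is assumed, and on a miRNA panel they are read from the same RNA as the miRNAs. B2m also gives a partial view of the MHC class I pathway. MHC heavy chains, peptide transporters and other mRNAs of that pathway were not analysed here.

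The libraries came from B cell progenitors of C57BL/6 fetal liver, taken at E14.5 and transformed with Abelson virus (a pMSCV-v-Abl retrovirus coding for the Abelson kinase). IL-7 at 10 ng/ml was added to support transformation, and the medium was exchanged over 8 days. There were 5 Bim3'UTRmut/mut libraries, homozygous for an altered 3'UTR of the pro-apoptotic gene Bim and called mutant 6 to 10 here, and 5 wild type libraries, numbered 1 to 5. Both genotypes carry v-Abl, so neither represents untransformed progenitors. The labels state neither which bases of the Bim 3'UTR differ nor whether each library had its own embryo or culture. A p-value therefore reflects only the spread among these libraries, part of which may be technical. The genotypes could not be checked from the data, since Bim mRNA was not analysed here.

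All probes together gave 356141 to 470493 counts per library. The labels name no cartridge or lane. The deposited column names share a prefix, read here as a single cartridge, and end in a running number, read here as the lane. On that reading mutant libraries occupied lanes 6 to 10 and wild type libraries lanes 1 to 5. Lane and genotype then cannot be told apart. All 6 miRNAs of a B-lymphoid and pan-haematopoietic list found on the panel were kept as expressed, with 58 of 60 values above background. Their summed counts were 52749 to 67811 in mutant and 46557 to 55975 in wild type libraries. Most of each sum came from miR-16 (mean 25318 counts) and miR-142-3p (mean 24965 counts). miR-16 is not specific to these cells, so the size of the sum is not a measure of cell identity. The markers listed for muscle, neural, mesenchymal, hepatocyte, endothelial, myeloid and erythroid cells were not kept, and no such list summed to more than 271 counts in a mutant or 197 counts in a wild type library. Mutant 9 and mutant 10 stood apart from the other mutant libraries in several measures below, and values without both are given beside the results that rest on them or in the closing section.

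A stretch of the B2m promoter is shown because B2m is read here as part of the MHC class I pathway, whose genes are known to respond to interferon and NF-kB. In RefSeq's promoter window (build GRCm38.p6), the plus-strand stretch chr2:122147544-122147573 holds both motifs searched. Capitals mark an interferon-stimulated response element core (GAAA, any 2 bases, GAAA), which starts 139 bases before the annotated gene start, followed by a kappaB-like match (GGGA, any 4 bases, CC), which starts 127 bases before it.

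B2m promoter stretch: acatGAAACTGAAAatGGGAAAGTCCcttt

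Searched on both strands of 32851 promoter windows of the mouse genome, the first motif occurred in 3.44%, the second in 20.7% and both in 0.533% of windows. The 2 motifs do not overlap each other in the printed stretch. The B2m window held 1 reverse-strand kappaB-like match, which is the capitalised kappaB-like site read on the other strand, shifted by 1 base. Of the 2 Rpl19 windows, neither held the response element core and 1 held a reverse-strand kappaB-like match. Actb was not searched. A match is a description of letters and not a measured binding site.

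B2m, the MHC class I light chain, split the mutant libraries. It counted 1592 in mutant 6, 1584 in mutant 7, 1490 in mutant 8, 4029 in mutant 9 and 4195 in mutant 10, against 3250, 4561, 3712, 3832 and 3311 in wild type 1 to 5. In these raw counts the first 3 mutant libraries lay below every wild type library. The other mutant libraries lay within the wild type range, so the genotypes overlapped. The raw mean was 2578 ± 1402 in mutant and 3733 ± 526 in wild type libraries (SD, n = 5 each), and the coefficient of variation was 54.4% in mutant and 14.1% in wild type. Counting error alone was at most 2.59% of any B2m count. Because RNA was read in bulk, fewer cells with B2m mRNA and less B2m mRNA per cell cannot be told apart.

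Actb varied in both genotypes. Its raw counts were 7663, 9462, 12527, 5568 and 6829 in mutant 6 to 10, against 7905, 11246, 9180, 13490 and 9194 in wild type 1 to 5. Mutant 9 had the lowest count and mutant 10 the second lowest, wild type 4 had the highest, and the genotypes overlapped. The raw mean was 8410 ± 2701 in mutant and 10203 ± 2193 in wild type libraries (SD, n = 5 each), with coefficients of variation of 32.1% in mutant and 21.5% in wild type. The libraries with the lowest Actb counts were the mutant libraries with the highest B2m counts.

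Rpl19 had the narrowest range. Its raw counts were 4804, 4574, 5649, 4575 and 4518 in mutant 6 to 10, against 3973, 4534, 4198, 4742 and 4893 in wild type 1 to 5. Mutant 8 was the highest and wild type 1 the lowest library, and the groups overlapped. The raw mean was 4824 ± 474 in mutant and 4468 ± 380 in wild type libraries (SD, n = 5 each). Across all 10 libraries the highest count exceeded the lowest 1.42-fold for Rpl19, 2.42-fold for Actb and 3.06-fold for B2m. For comparison, the remaining control mRNA, Gapdh, had 1187, 1089, 966, 244 and 309 counts in mutant 6 to 10 and 625, 831, 664, 733 and 901 counts in wild type 1 to 5, a 4.86-fold range. Levels of different genes were not set against each other, since each probe has its own binding efficiency.

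**Figure D1:**
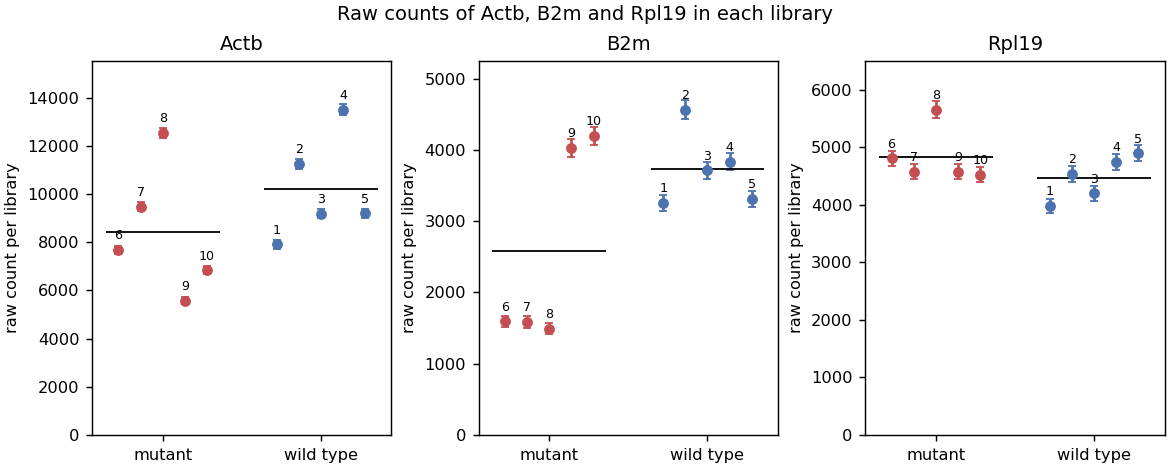
Raw counts (y axes) of Actb, B2m and Rpl19 in each library, numbered as in the text, with mutant left of wild type; bars are exact 95% Poisson intervals of the count and horizontal lines are group means. B2m sits between 1490 and 1592 in 3 mutant libraries and between 4029 and 4195 in the other mutant libraries, while Rpl19 stays between 3973 and 5649 throughout.

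None of the 3 mRNAs passed the test for a genotype difference across all features. Counts of the 116 kept miRNAs and the 4 control mRNAs were fitted together in edgeR's quasi-likelihood test, with libraries scaled by TMM (trimmed mean of M values) factors from the miRNAs. In that fit 0 of 120 features (0.0%) had a Benjamini-Hochberg adjusted p under 0.05, and 13 (10.8%) had an unadjusted p under 0.05, of which 6 (5.0% of all) were lower in mutant. DESeq2 called 5 of 119 features (4.2%), none of them a member.

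B2m had a log2 difference of -0.75 (mutant minus wild type, SE 0.30, 95% interval -1.42 to -0.07), with an unadjusted edgeR p of 0.0334 and an adjusted p of 0.385. TMM-scaled B2m averaged 2376 ± 1152 counts in mutant and 3983 ± 555 counts in wild type libraries (SD, n = 5 each). On this scale mutant 9 (3283) also lay below the lowest wild type library (3295), by a small margin. Mutant 10 (3931) lay inside the wild type range, so the groups still overlapped. Only 1 of the 120 features had a lower fitted difference. Leaving out any single library gave -1.02 to -0.60, and leaving out mutant 9 and 10 together gave -1.35 with an edgeR adjusted p of 0.000446. Those are the mutant libraries with the highest B2m, so that value is a description of the remaining libraries and not independent evidence of a genotype difference. It was also the only one of 20 possible omissions of a same-genotype pair that put B2m past the threshold.

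Actb had a log2 difference of -0.44 (SE 0.26, 95% interval -1.03 to 0.14; edgeR adjusted p = 0.407) and the difference of Rpl19 was -0.06 (SE 0.12, 95% interval -0.34 to 0.22; edgeR adjusted p = 0.873). TMM-scaled counts averaged 8047 ± 2770 in mutant and 10940 ± 2686 in wild type for Actb, and 4584 ± 660 in mutant and 4783 ± 612 in wild type for Rpl19 (SD, n = 5 each). The small difference of Rpl19 turned positive, to 0.13, when libraries were scaled to the positive controls, synthetic targets added at fixed amounts. All 3 members had fitted differences below 0 with a median of -0.44, compared with 62 of 120 features below 0 and a median of -0.02 over all features.

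Scaling to the positive controls gives a view that does not rest on the miRNAs. On that scale B2m differed by -0.66 in mean log2 count (exact two-sided permutation p = 0.151), Actb by -0.28 (exact permutation p = 0.254) and Rpl19 by 0.14 (exact permutation p = 0.214). The smallest p that 5 libraries against 5 can give is 0.00794. The genotypes overlapped for each of the 3 members, while 5 of all 120 features (4.17%) had groups that did not overlap. With these controls in place of TMM, edgeR gave a median miRNA difference of 0.20, and the members' differences were -0.49 for B2m, -0.27 for Actb and 0.13 for Rpl19.

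Ratios within a library cancel depth and lane efficiency. B2m over Rpl19 was 0.331, 0.346, 0.264, 0.881 and 0.929 in mutant 6 to 10, against 0.818, 1.006, 0.884, 0.808 and 0.677 in wild type 1 to 5. Mutant 6 to 8 lay below the whole wild type range and the other mutant values lay inside it. The mean log2 ratio differed by -0.80 (exact two-sided permutation p = 0.127, 0.381 after Benjamini-Hochberg adjustment over the 6 ratios of control mRNAs), and its SD was 0.86 in mutant and 0.21 in wild type libraries.

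B2m over Actb spread more widely in the mutant libraries, on both sides of wild type. The ratio was 0.208, 0.167, 0.119, 0.724 and 0.614 in mutant 6 to 10, against 0.411, 0.406, 0.404, 0.284 and 0.360 in wild type 1 to 5. Every mutant library lay outside the wild type range, 3 below it and the other mutant libraries above it. The log2 ratio had an SD of 1.16 in mutant and 0.23 in wild type libraries, and its mean differed by -0.38 (exact permutation p = 0.500, adjusted p = 0.657).

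Actb over Rpl19 was steadier, at 1.60, 2.07, 2.22, 1.22 and 1.51 in mutant 6 to 10 and 1.99, 2.48, 2.19, 2.84 and 1.88 in wild type 1 to 5. Mutant 6, 9 and 10 lay below every wild type library and mutant 7 and 8 inside the wild type range. The mean log2 ratio differed by -0.42 (exact permutation p = 0.0714, adjusted p = 0.381), with an SD of 0.35 in mutant and 0.24 in wild type libraries. The ratios to Gapdh differed by -0.06 for Actb, -0.44 for B2m and 0.36 for Rpl19, with exact permutation p-values of 0.937, 0.548 and 0.437. B2m over Gapdh reached 16.5 and 13.6 in mutant 9 and 10 and lay between 1.34 and 1.54 in mutant 6 to 8, against 3.67 to 5.59 in wild type libraries.

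**Figure D2:**
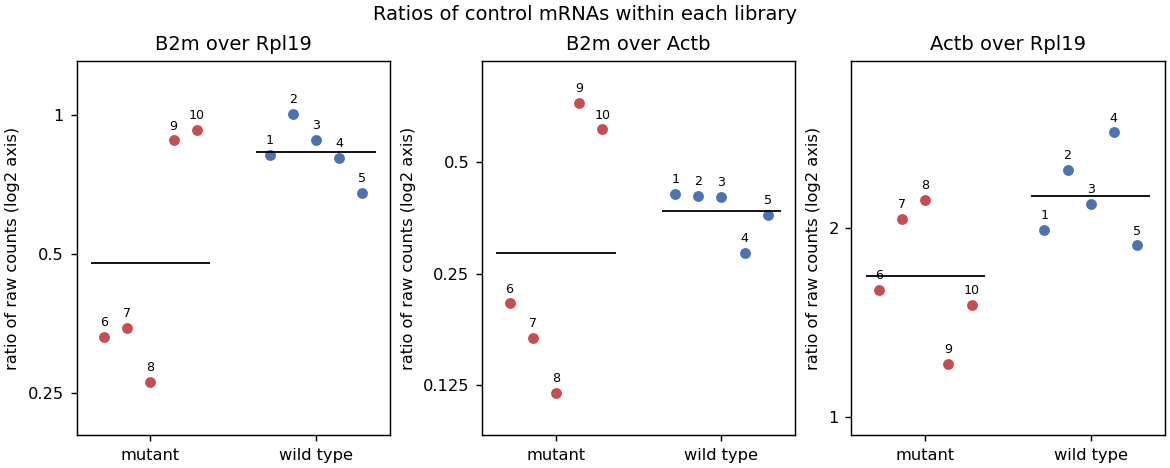
Ratios of raw counts within each library (y axes, log2 scale) for B2m over Rpl19, B2m over Actb and Actb over Rpl19, with mutant left of wild type; numbers name the libraries and horizontal lines are geometric means. All mutant ratios of B2m over Actb fall outside the wild type range of 0.284 to 0.411, in both directions.

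Stability was measured by the M value, the mean SD over libraries of the log2 ratio of a gene to each other gene in a set, where a lower value means a steadier ratio. Among the 4 control mRNAs over all 10 libraries, M was 0.584 for Actb, 0.602 for Rpl19, 0.855 for Gapdh and 0.935 for B2m. Actb and Rpl19 were close, and their order depended on the set: without Gapdh, M was 0.542 for Rpl19, 0.588 for Actb and 0.769 for B2m. Leaving out mutant 9 also put Rpl19 first, at 0.523. Over the 4 control mRNAs within each genotype, Rpl19 had the lowest M, at 0.748 in mutant and 0.192 in wild type libraries. In that set B2m had 1.29 in mutant and 0.228 in wild type libraries, and Actb had 0.774 in mutant and 0.258 in wild type libraries. Without Gapdh, Rpl19 was still lowest in mutant libraries (0.604), but B2m was lowest in wild type libraries (0.217), with Rpl19 at 0.225. Without mutant 9 and 10, the lowest of the 4 was Rpl19 (0.425, Actb 0.467), and the lowest of the 3 without Gapdh was Actb (0.467, Rpl19 0.505), while B2m was highest in both sets (0.795 and 0.720).

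Against the whole panel the members differed more clearly over the 10 libraries. Over all 120 features, the M value of Rpl19 was 0.499, which ranked 34 from the steadiest, and the median feature had 0.532. Actb ranked 91 with 0.713, B2m 94 with 0.807 and Gapdh 105 with 1.049. Within wild type libraries Rpl19 was near the median feature (0.350 against 0.348, rank 62), with B2m at rank 73 (0.367) and Actb at 94 (0.472). Within mutant libraries the ranks were 35 for Rpl19, 90 for Actb and 91 for B2m. Without mutant 9 and 10, Rpl19 ranked 38 (0.393, median 0.419), Actb 84 (0.485) and B2m 105 (0.804). The steadiest features were miRNAs, namely miR-1900 (0.460), let-7i (0.461), let-7d (0.464), miR-1896 (0.464) and miR-27a (0.464). Mean raw counts were only 221.5 for miR-1900 and 174.5 for miR-1896, not far above the background threshold of 90.5 to 127 counts. Those of let-7i, let-7d and miR-27a were 7464.6, 5976.7 and 2361.7. By the plain SD of raw log2 counts, Rpl19 ranked 14 of 120 (SD 0.14), Actb 78 (SD 0.40) and B2m 92 (SD 0.64), with a median feature SD of 0.31. The lane's own controls varied by 6.28% (positive controls) and 9.39% (ligation controls) in coefficient of variation, compared with 9.61% for Rpl19, 26.9% for Actb and 37.1% for B2m in raw counts. After scaling to the positive controls, the members had 11.5% for Rpl19, 24.7% for Actb and 37.5% for B2m. On that scale the SD of log2 counts ranked 22 for Rpl19, 71 for Actb and 92 for B2m.

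**Figure D3:**
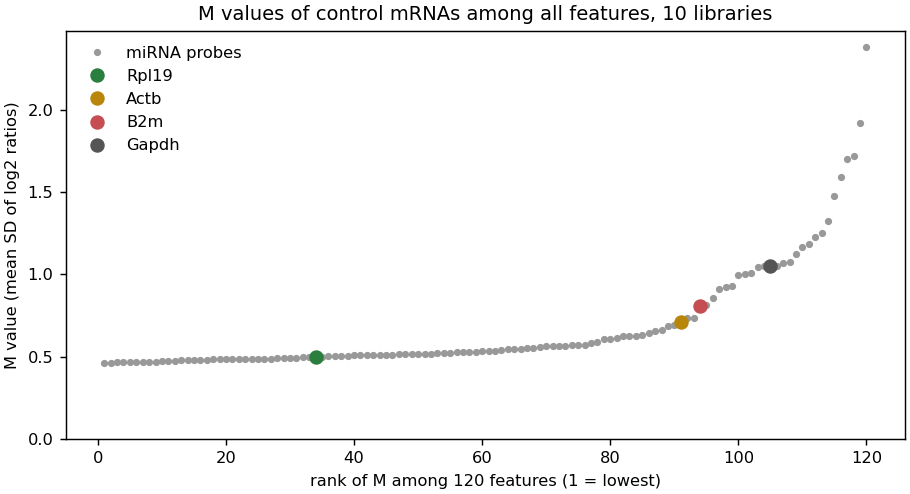
M value (y axis, mean SD of log2 ratios over 10 libraries) of each of 120 features against its rank (x axis, 1 = steadiest), with control mRNAs as large points and miRNA probes as small grey points. Rpl19 lies on the flat part at rank 34, while Actb and B2m lie at ranks 91 and 94.

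The kept miRNAs with the steadiest log2 ratio to each member over the 10 libraries are named next. These likenesses are descriptions over libraries that share lanes and depth. The steadiest ratios to Rpl19 were those of the joint probe for miR-20a with miR-20b and that for miR-106a with miR-17 (SD of the log2 ratio 0.13 each). Next were miR-19a (0.14), miR-98 (0.15) and let-7d (0.15). The raw log2 counts of Rpl19 alone had an SD of 0.14, so ratios this steady need not mean that the probes vary together. The median kept miRNA had an SD of 0.33. The mature RefSeq sequences of the miRNAs named by the 2 joint probes, and of the miRNA nearest to B2m, are shown so that the shared probes can be read. Capitals mark the seed, bases 2 to 8, and all 5 names matched the RefSeq table.

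miR-20a-5p: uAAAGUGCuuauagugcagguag
miR-20b-5p: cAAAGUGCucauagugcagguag
miR-106a-5p: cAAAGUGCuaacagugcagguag
miR-17-5p: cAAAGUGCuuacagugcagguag
miR-21a-5p: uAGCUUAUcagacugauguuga

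The first 4 share the seed AAAGUGC of the miR-17 family, and miR-21a has another seed. The miR-20a and miR-20b probe had 18100, 18764, 21486, 17277 and 17449 counts in mutant 6 to 10 and 16653, 15464, 17795, 15618 and 16960 in wild type 1 to 5. Its highest library in raw counts was mutant 8, which was also the highest library of Rpl19 in raw counts. After scaling to the positive controls, Rpl19 was 5234 in mutant 8, below 5261 in mutant 6 and 5375 in wild type 5. Other libraries did not match. Among wild type libraries the probe was highest in wild type 3 (17795), where raw Rpl19 (4198) exceeded only wild type 1 (3973).

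B2m was nearest to miR-21 (SD 0.41), followed by miR-690 (0.42), miR-29b (0.47), miR-23b (0.47) and miR-34a (0.48), with a median of 0.73 over the kept miRNAs. The counts of miR-690 (68 to 138) lay near the background threshold of 90.5 to 127 counts. miR-21, an miRNA abundant in activated and transformed cells, had 2701, 4770, 5594, 9199 and 10561 counts in mutant 6 to 10 and 7149, 8525, 6864, 5546 and 6623 in wild type 1 to 5. Its highest libraries were mutant 9 and 10, whose raw B2m counts lay within the wild type range, and its lowest were mutant 6 and 7. In mutant 8, the library with the lowest B2m, miR-21 lay inside its own wild type range. Its genotype difference in edgeR was -0.29 (adjusted p = 0.681), and -0.78 without mutant 9 and 10 (adjusted p = 0.0659). Over the 8 libraries without these 2, miR-21 was the third nearest to B2m (SD 0.45, median 0.77), behind miR-22 (0.40) and miR-804 (0.42), with miR-690 (0.46) and miR-34a (0.47) next. The miRNAs nearest to Actb were miR-31 (0.33), miR-107 (0.35), miR-32 (0.36), miR-1937c (0.36) and miR-185 (0.37), with a median of 0.59. Raw log2 counts of Actb alone had an SD of 0.40, so these ratios need not mean that the probes vary with Actb. Counts of miR-107 (94 to 174) and miR-185 (115 to 148) also lay near the background threshold. Without mutant 9 and 10, only miR-32 (0.27) remained among the 5 nearest to Actb, and the median was 0.37. For Rpl19, both joint probes (0.14 each) and miR-98 (0.15) remained among the 5 nearest without these libraries, with a median of 0.25.

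Because B2m is known to be induced by interferon and NF-kB signalling, a list of 8 miRNAs reported as inducible by these pathways was set beside it. Of the 8, 3 were kept, 0 passed the adjusted threshold, 2 had a difference above 0, and the median was 0.29. Of all 116 kept miRNAs, 0 passed, 58 had a difference below 0, and the median was -0.0040. With 3 members the list is too short to set apart from that background. miR-146a, a known NF-kB target, had 439, 1717, 771, 15130 and 21250 counts in mutant 6 to 10 and 1315, 2209, 1328, 1856 and 3292 in wild type 1 to 5, so mutant 9 and 10 exceeded every other library. Its log2 difference was 1.70 (edgeR adjusted p = 0.407) with all libraries and -1.16 (edgeR adjusted p = 0.231) without mutant 9 and 10, so its direction rested on these libraries. The differences were 0.29 for miR-155 (adjusted p = 0.656) and -0.29 for miR-21. miR-155 had 126, 194, 185, 306 and 201 counts in mutant 6 to 10 and 243, 149, 120, 132 and 84 in wild type 1 to 5. Mutant 10 thus lay below wild type 1 in miR-155. Without mutant 9 and 10 the miR-155 difference stayed above 0, at 0.12 (edgeR adjusted p = 0.782). Mutant 9 and 10 had the highest B2m of the mutant libraries, the highest miR-146a and miR-21 of all libraries, and the lowest Actb and Gapdh; the part of any of these in the others was not tested.

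Used as references, the members gave different miRNA results from the same counts. When each library was scaled to Rpl19 alone, its scaling factors spanned 1.42-fold, the median miRNA differed by 0.06 in log2 between mutant and wild type, and 0 of 116 miRNAs (0.0%) were called higher in mutant by edgeR at an adjusted p under 0.05, with 4 at an unadjusted p under 0.05. With Actb alone the factors spanned 2.42-fold, the median miRNA difference was 0.50 and 0 of 116 were called, with 23 at an unadjusted p under 0.05. With B2m alone the factors spanned 3.06-fold, the median was 0.99, and 76 of 116 miRNAs (65.5%) were called, all higher in mutant. At an unadjusted p under 0.05 there were 92. All 116 tests shared the same B2m factor of each library, so these calls are not separate results for each miRNA. B2m itself did not pass the adjusted threshold for a genotype difference. Scaling by TMM from the miRNAs gave a median of -0.0040, with 0 called and 11 at an unadjusted p under 0.05.

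Combining the members did not remove the shift. The geometric mean of Actb and Rpl19 gave a median miRNA difference of 0.28 with 0 called, and 13 at an unadjusted p under 0.05. The mean of all 3 gave a median of 0.46 with 36 of 116 called (31.0%), all higher in mutant and all among the 76 called under B2m (100% of the 36 and 47.4% of the 76). At an unadjusted p under 0.05 the mean of all 3 gave 63. These tests too shared the same factor of each library. Adding Gapdh left the median at 0.46 with 0 called, against 52 at an unadjusted p under 0.05. Gapdh alone gave 0.80 and 1 call (0.862%).

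These counts changed when single libraries were left out, which also left fewer libraries for the test. With B2m as the reference, 0 miRNAs were called without wild type 2 or without wild type 4. Called miRNAs numbered 16 without mutant 8, 21 without wild type 3, 27 without mutant 7 and 34 without mutant 6. The B2m reference called 60 without wild type 1, 72 without wild type 5, 94 without mutant 9 and 102 without mutant 10. Without both mutant 9 and mutant 10 it called 102, of which 100 were higher and 2 lower in mutant. All 3 members together called 0 without wild type 2 or wild type 4, 10 without wild type 3 and 13 without mutant 9 or wild type 5. They called 23 without mutant 6, 25 without mutant 7, 26 without mutant 8, 50 without mutant 10 and 56 without wild type 1. Without both mutant 9 and mutant 10 they called 37, of which 34 were higher and 3 lower in mutant. With Rpl19, 0 were called on leaving out any single library and 6 without both mutant 9 and mutant 10, of which 1 was higher and 5 were lower in mutant, with a median miRNA difference of -0.05. The median SD of miRNA levels within a genotype was 0.76 in mutant and 0.27 in wild type under B2m, 0.64 in mutant and 0.39 in wild type under Actb, and 0.36 in mutant and 0.25 in wild type under Rpl19. TMM gave 0.30 in mutant and 0.18 in wild type.

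**Figure D4:**
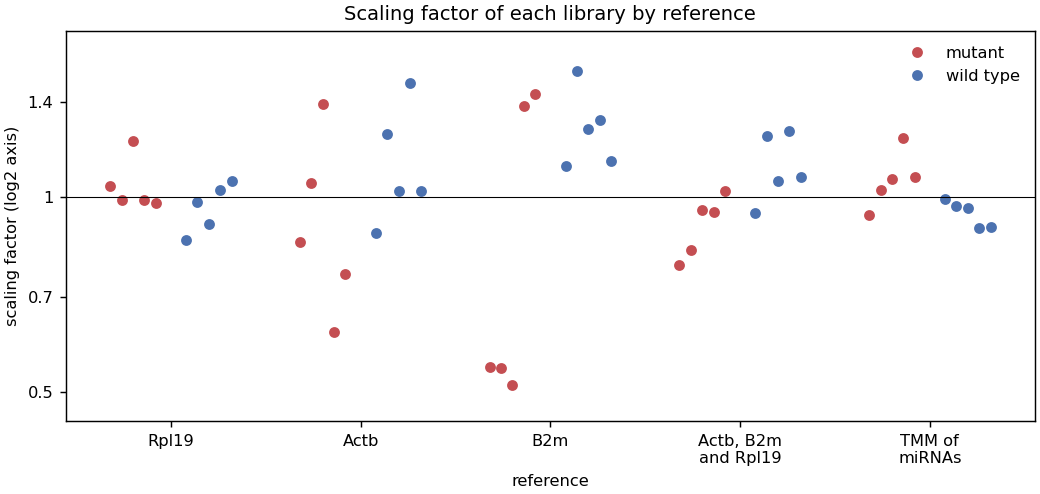
Scaling factor of each library (y axis, log2 scale, 1 = the geometric mean of all libraries) under 5 references, with mutant left of wild type within each. B2m splits the mutant libraries into factors near 0.51 to 0.55 and near 1.38 to 1.44, while Rpl19 keeps all libraries between 0.859 and 1.22.

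**Figure D5:**
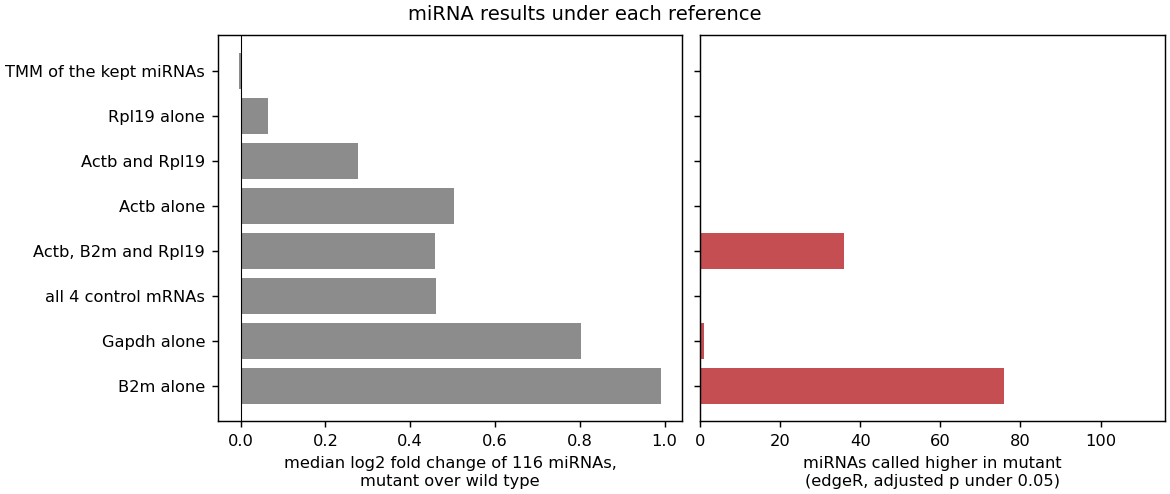
Left, median log2 fold change of 116 miRNAs (x axis, mutant over wild type) under each reference; right, number of miRNAs called higher in mutant by edgeR at an adjusted p under 0.05. The median is 0.06 with Rpl19 alone and 0.99 with B2m alone, and the calls are 0 and 76.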

How the data were processed

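Total RNA (100 ng per sample, miRNeasy kit, low-purity samples left out) was run on the nCounter, per the labels' protocols. The deposited tables hold raw whole-number counts per probe, not normalised by the authors as far as the values show. The 2 tables hold the same values (0 differ). Their average, minimum, maximum and variation columns were not used. No other upstream step is given in these sources.

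A miRNA was kept when it exceeded the mean + 2 SD of its library's negative controls (90.5 to 127 counts) in at least 5 libraries, which left 116 of 566. All counts of the members were at least 12.5 times that threshold. Counts were tested with edgeR 4.0.16 (R 4.3.3), with DESeq2 1.42.0 and limma 3.58.1 as alternatives, using robust quasi-likelihood fits on genotype and Benjamini-Hochberg adjustment over 120 features. Simulated data were used to check the edgeR fit. Single values and ratios were compared by exact permutation. Intervals cover counting error only where called Poisson. No 2 libraries of a genotype agreed within sampling noise (lowest chi-square per degree of freedom 17.1 over 20 pairs).

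Members, lists and tests were chosen with earlier results of these data known. Named genes were the members, Gapdh, the 5 miRNAs nearest to each member, the 5 features of lowest M value and the kept inducible miRNAs. Leaving out pairs of libraries, and single libraries under the B2m, Rpl19 and 3-member references, was added after seeing the data.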

Additional observations from a re-analysis of the deposited data

Results flagged for a closer look

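Rpl19 had a raw count of 5649 in mutant 8, while the other mutant libraries had 4518 to 4804. The gap to the nearest of them was 0.747 of the group's whole range, above Dixon's 95% critical value for 5 samples. This was 1 of 18 groups examined, and about 1 in 20 groups exceeds that value by chance. After scaling to the positive controls the Rpl19 value of mutant 8 was 5234, below the 5261 of mutant 6.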

How the results depend on the processing

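No paired analysis was possible because the replicate numbers of mutant (6 to 10) and wild type (1 to 5) libraries are not shared. Over the reported fit and 10 other settings of scaling, filter or tool, the log2 difference of B2m ran from -0.86 to -0.49 (adjusted p 0.193 to 0.606), that of Actb from -0.50 to -0.23 (adjusted p 0.297 to 0.797), and that of Rpl19 from -0.12 to 0.15. Rpl19 changed sign with positive-control scaling (0.13) and with no filter on low counts (0.15), and the cause was not tested. Leaving out single libraries gave -1.02 to -0.60 for B2m, -0.62 to -0.25 for Actb and -0.13 to 0.05 for Rpl19 (0.046 without mutant 9). Features past the threshold numbered 0, against 5 in DESeq2, 0 to 1 without single libraries (1 without mutant 9 or mutant 10) and 7 without mutant 9 and 10. Leaving out mutant 9 and 10 together, added after seeing the data, gave -1.35 for B2m and 0.063 for Rpl19. The log2 ratio differences were then -1.20 for B2m over Actb, -1.42 for B2m over Rpl19 and -1.79 for B2m over Gapdh (adjusted exact permutation p = 0.0357 for each of the 3 ratios). The libraries left out had the highest B2m of the mutant libraries. These 3 ratios therefore describe the remaining libraries and are not independent evidence of a genotype difference. In all 3 the remaining groups did not overlap, which gives the smallest exact permutation p that 56 splits allow (0.0179 before adjustment). Without the same libraries, Rpl19 over Gapdh gave -0.37 and an SD of 0.27, against an SD of 0.72 with all libraries. The Actb over Gapdh difference ran from -0.26 to 0.20 without single libraries and was above 0 without mutant 6, mutant 7 or wild type 4. The steadiest control mRNA was Actb with M 0.584, but Rpl19 without mutant 9 and 10 (0.425) and over all features (0.499); without single libraries the lowest M ran from 0.523 to 0.616. By reference, the median miRNA difference was 0.50 with Actb, 0.99 with B2m, 0.80 with Gapdh, 0.28 with Actb and Rpl19, 0.46 with Actb, B2m and Rpl19 and 0.46 with all 4 control mRNAs, and the calls were 76 with B2m, 36 with Actb, B2m and Rpl19 and 1 with Gapdh. Without single libraries these calls ran from 0 to 102 with B2m and from 0 to 56 with Actb, B2m and Rpl19, and Rpl19 gave 6 without mutant 9 and 10, 1 higher and 5 lower in mutant. Depth was no limit for the members, whose counting error was at most 2.59%. The number of libraries, and the shared cartridge and lane order read from the column names, limit what the genotype comparison can show.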
